A study of Mus musculus with 4 samples.

Results

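The TAM receptors, named after Tyro3, Axl and Mertk, and their ligands Gas6 and Pros1 were examined in mouse cortical progenitor cells in which 3 chromatin and transcription regulators had been targeted together. The 5 genes were found in the deposited table by Ensembl identifier, matched without its version to the GENCODE M21 gene symbols. All 5 were present among 34866 identifiers, and all 5 passed the filter on low counts together with the other genes of the 14050 tested. They were chosen by name as a family, and selected on the CPM difference of Axl between these same libraries, in which Axl was already known to be lower. The differences between the groups are therefore given as a description of these libraries and are not a test of the family.

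TAM receptors are receptor tyrosine kinases of the cell surface. Gas6 and protein S, the product of Pros1, bind phosphatidylserine exposed on dying cells with a gamma-carboxylated (Gla) domain and bind the receptor with their other end, so that they bridge the dying cell to the cell that clears it. Gas6 activates every TAM receptor, whereas protein S is known mainly as a ligand of Tyro3 and Mertk. In the brain, Axl and Mertk are known for the clearance of dying progenitors by microglia, and TAM receptors are also present on neural stem cells. In dendritic cells, TAM receptors signal together with the type I interferon receptor to induce Socs1 and Socs3, and Axl is itself induced by interferon.

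In the triple knockdown group, cells received 3 lentiviral vectors with hairpins against Phf21b, Zfp7 and Zfp57, at a multiplicity of infection of 10 each. In the shControl group, cells received 1 lentiviral vector with a control hairpin at a multiplicity of 30. Both groups were neural stem and progenitor cells from wild-type dorsal telencephalon at E11.5, infected when plated and kept as floating neurospheres with basic fibroblast growth factor for 5 days, with 2 libraries per group and 1 batch label for all 4. The control hairpin and the Phf21b hairpin were in CS-EG type vectors and the other hairpins in pLV-EG vectors, so the number of vectors and the backbone cannot be told apart from the knockdown. Nothing in the labels says that replicates were separate cultures or litters, so a p-value here reflects variation among the 4 libraries alone, and that variation may be technical. The groups were compared to find genes that differ when the 3 regulators are targeted together.

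The libraries held 15170491 and 17901386 estimated reads in the triple knockdown and 14694387 and 20779211 in shControl. Levels are given as CPM, each count divided by its library's TMM-scaled total. Of the targeted genes, Phf21b was at 81.6%, Zfp7 at 77.6% and Zfp57 at 75.6% of its shControl level, and none passed the edgeR threshold over all genes (adjusted p = 0.644, 0.80 and 0.341). The direction of Zfp7 rests on 1 library, with a log2 fold change of -0.98 without triple knockdown replicate 1 and 0.03 without replicate 2. Mitochondrially encoded genes took 26.6% to 28.5% of the reads in the triple knockdown and 30.3% to 33.9% in shControl. All 14 radial glia markers, which define the labelled progenitors, were detected and tested, and Fabp7, a fatty acid-binding protein of radial glia, had 21400 CPM in the triple knockdown and 25000 CPM in shControl.

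Axl was the member that differed most between the groups. Axl (ENSMUSG00000002602.16, chromosome 7, 25757273 to 25788705 on the minus strand, GRCm38) encodes the receptor with the highest known affinity for Gas6. It had 25.0 and 24.0 estimated reads in the triple knockdown libraries, against 70.0 and 59.0 in the shControl libraries. In CPM these were 1.33 and 1.56 in the triple knockdown, against 3.25 and 4.43 in shControl. The groups did not overlap, and the lower shControl library was above the higher triple knockdown library. The means were 1.45 ± 0.163 CPM in the triple knockdown and 3.84 ± 0.835 CPM in shControl (SD, n = 2 each). The log2 fold change of triple knockdown over shControl was -1.39 (SE 0.34), that is 38.1% of the shControl level with a 95% interval of 24.1% to 60.4%. It was the 34th lowest of the 14050 fold changes, a rank that is no support because the family was selected on this difference. The counts are small: the exact 95% Poisson interval of the lower triple knockdown count was 15.4 to 35.7 reads, and that of the lower shControl count was 44.9 to 76.1, covering counting error only.

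Tyro3 and Mertk had smaller differences, whose contrast with that of Axl was not tested. Tyro3 (ENSMUSG00000027298.17, chromosome 2, 119797733 to 119818104, plus strand), the TAM receptor most associated with neurons, had 4.26 and 4.76 CPM in the triple knockdown and 4.69 and 4.81 CPM in shControl. The groups overlapped, and the log2 fold change was -0.08 (SE 0.25; 0.0042 when scaled on library size only), 94.9% of the shControl level with an interval of 68.0% to 132%. Mertk (ENSMUSG00000014361.5, chromosome 2, 128698956 to 128802894, plus strand), a receptor known for the engulfment of dying cells by macrophages, had 1.17 and 1.24 CPM in the triple knockdown and 0.929 and 0.977 CPM in shControl. Both triple knockdown libraries were above both shControl libraries, but the counts were 22.3 and 19.5 reads in the triple knockdown and 20.4 and 13.0 reads in shControl. The log2 fold change was 0.34 (SE 0.49), 127% of the shControl level with an interval of 64.9% to 247%, which is too wide to tell a decrease from an increase at this depth.

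Gas6 was lower in the triple knockdown and Pros1 was close to its shControl level. Gas6 (ENSMUSG00000031451.6, chromosome 8, 13465374 to 13494490, minus strand), the ligand of every TAM receptor, had 53.0 and 42.0 reads in the triple knockdown, against 121 and 47.0 in shControl. In CPM it had 2.82 and 2.74 in the triple knockdown and 5.62 and 3.53 in shControl. The groups did not overlap, but the shControl libraries lay further from each other than the lower of them lay from the triple knockdown. The log2 fold change was -0.74 (SE 0.28), 59.7% of the shControl level with an interval of 41.0% to 86.9%. Leaving out shControl replicate 1 gave -0.34 and leaving out replicate 2 gave -1.0, so the size rests on which shControl library is kept. Pros1 (ENSMUSG00000022912.8, chromosome 16, 62854307 to 62929346, plus strand), which encodes the anticoagulant protein S, had 3.84 and 4.30 CPM in the triple knockdown and 4.64 and 3.76 CPM in shControl. Those groups overlapped, with a log2 fold change of -0.06 (SE 0.26; 0.01 when scaled on library size only), 95.7% of the shControl level with an interval of 67.4% to 136%.

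**Figure D1:**
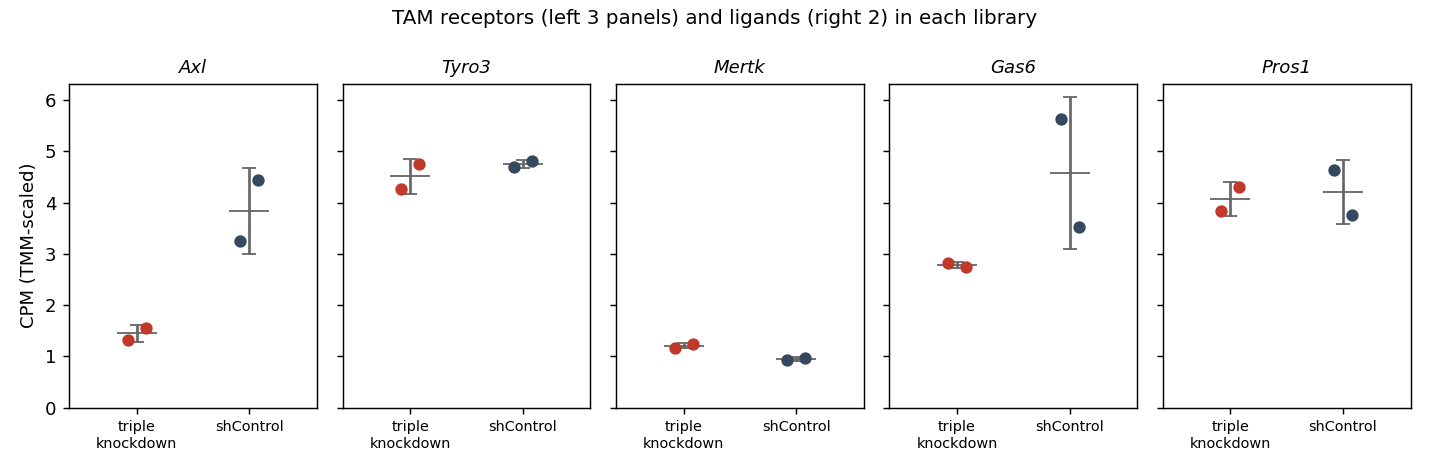
CPM (y axis) of Axl, Tyro3, Mertk, Gas6 and Pros1 in each library, triple knockdown left of shControl; points are libraries, the horizontal line is the mean and the bar is ± SD (n = 2). Axl lies at 1.33 and 1.56 CPM in the triple knockdown, below 3.25 and 4.43 CPM in shControl, and Gas6 spreads from 3.53 to 5.62 CPM between the shControl libraries.

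In edgeR's quasi-likelihood test with Benjamini-Hochberg adjustment over all tested genes, 1 of the 5 members, Axl, was past the threshold of 0.05. Over all genes 1.37% were past it, 0.541% higher and 0.826% lower (76 and 116 genes, but 77 and 28 when scaled on library size only). Leaving out triple knockdown replicate 1 gave 27 higher and 17 lower genes, and leaving out shControl replicate 2 gave 280 and 334. The libraries of the groups did not overlap for 3 of the 5 members, 2 of them lower and 1 higher, beside 41.3% of all tested genes (21.7% lower and 19.6% higher), so that count is near the share for genes in general. Since the members were chosen with this comparison known, nothing is read from either count. The call of Axl was not made with DESeq2 (log2 fold change -1.39) and was lost without either triple knockdown library (-1.28 without replicate 1 and -1.51 without replicate 2) and without shControl replicate 2 (-1.16). Over the 11 alternatives the log2 fold change ranged from -1.62 to -1.16. All of them refit these same libraries, whose groups did not overlap for Axl, so the shared sign adds no support.

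**Figure D2:**
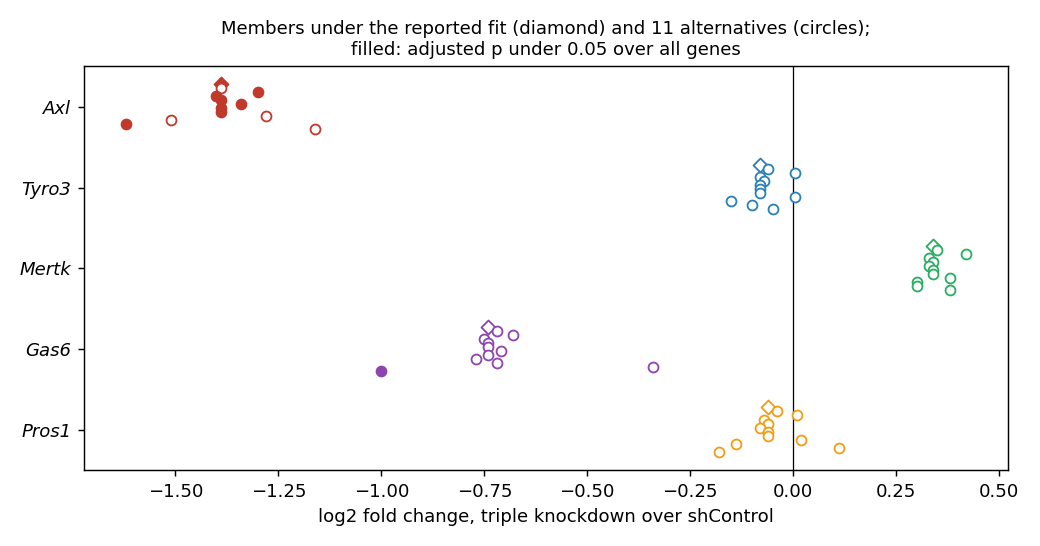
Log2 fold change of triple knockdown over shControl (x axis) of each member under the reported fit (diamond) and 11 alternative settings (circles); filled symbols have an adjusted p under 0.05 over all genes. Axl stays between -1.62 and -1.16 and is past the threshold in 7 of the 11 alternatives, Gas6 in 1, and Tyro3, Mertk and Pros1 in 0.

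The promoters of the pair of members whose libraries were lower without overlap, Axl and Gas6, are shown for the 250 bases before the RefSeq start (GRCm38.p6), read 5′ to 3′ on the gene's strand. Capitals mark matches on either strand to a Sp1 GC box (GGGCGG) or a TEAD site (GGAATG).
Axl, chr7:25788734-25788983, minus strand: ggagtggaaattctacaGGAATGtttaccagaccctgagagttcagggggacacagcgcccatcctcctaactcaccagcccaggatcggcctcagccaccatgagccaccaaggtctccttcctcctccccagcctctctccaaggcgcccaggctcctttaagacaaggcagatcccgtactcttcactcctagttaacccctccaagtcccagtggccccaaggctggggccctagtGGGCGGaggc
Gas6, chr8:13494536-13494785, minus strand: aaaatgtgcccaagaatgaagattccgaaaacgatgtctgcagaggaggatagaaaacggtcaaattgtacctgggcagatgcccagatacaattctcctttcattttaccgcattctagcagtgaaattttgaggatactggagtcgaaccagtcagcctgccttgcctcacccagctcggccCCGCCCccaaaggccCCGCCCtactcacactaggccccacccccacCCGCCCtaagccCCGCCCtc
The Axl window held 1 GC box, which begins 10 bases before the start, and 1 TEAD match, 233 bases before it. The Gas6 window held 4 GC boxes and no TEAD match. Of 27025 RefSeq promoters of the same length, 32.9% held a GC box and 12.6% a TEAD match, so both are common. Neither window held the hexamer TGCCGC, which Zfp57 binds when methylated (8.59% of promoters), an interferon-stimulated response element in its spaced consensus form (3.04%), a gamma-activated site written as TTCNNNGAA (7.18%) or an AP-1 site written as TGANTCA (6.87%). Among the other members, Tyro3 held 3 GC boxes, Mertk 3 and Pros1 5, and none held a TEAD match. The GC box was therefore in the window of every member. Tyro3 also held 2 matches to TGCCGC and Pros1 held 1 to TTCNNNGAA. A match is only a match of letters, and the absence of one says nothing about binding elsewhere.

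Levels of different genes were compared per length, as CPM per kilobase of the union of a gene's exons. In the triple knockdown, Gas6 was at 1.09 ± 0.0246, Pros1 at 0.995 ± 0.0799, Tyro3 at 0.728 ± 0.0561, Axl at 0.288 ± 0.0325 and Mertk at 0.278 ± 0.0106 CPM per kilobase (SD, n = 2). In shControl, Gas6 was at 1.80 ± 0.58, Pros1 at 1.03 ± 0.154, Tyro3 at 0.766 ± 0.0133, Axl at 0.763 ± 0.166 and Mertk at 0.22 ± 0.00777 CPM per kilobase. Axl and Mertk overlapped in the triple knockdown, whereas Axl and Tyro3 overlapped in shControl. The other neighbours in the order did not overlap, although Gas6 and Pros1 in the triple knockdown differed by little more than their spread.

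Axl therefore made up a smaller share of the receptor transcripts in the triple knockdown. Of the summed per-length level of the 3 receptors, Axl took 21.6% and 22.8% in the triple knockdown libraries, against 39.9% and 46.8% in the shControl libraries. Tyro3 took 56.2% and 56.3% in the triple knockdown, against 46.8% and 41.2% in shControl. Mertk took 22.1% and 20.9% in the triple knockdown, against 13.2% and 12% in shControl. For each receptor the shares did not overlap between the groups, but they are parts of the same whole and depend on each other. A fall of Axl, on which the family was selected, raises the other shares by itself. The CPM of Tyro3 overlapped between the groups. The sum itself was 1.22 and 1.36 CPM per kilobase in the triple knockdown and 1.62 and 1.88 in shControl, so the larger shares of Tyro3 and Mertk come with a smaller whole. Of the ligand sum, Gas6 took 54.1% and 50.5% in the triple knockdown and 66.0% and 60.1% in shControl, and Pros1 the rest. The mean Gas6 share depends on the length used: with coding length it was 40.7% in the triple knockdown and 51.6% in shControl, which puts Pros1 above Gas6 in the triple knockdown.

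**Figure D3:**
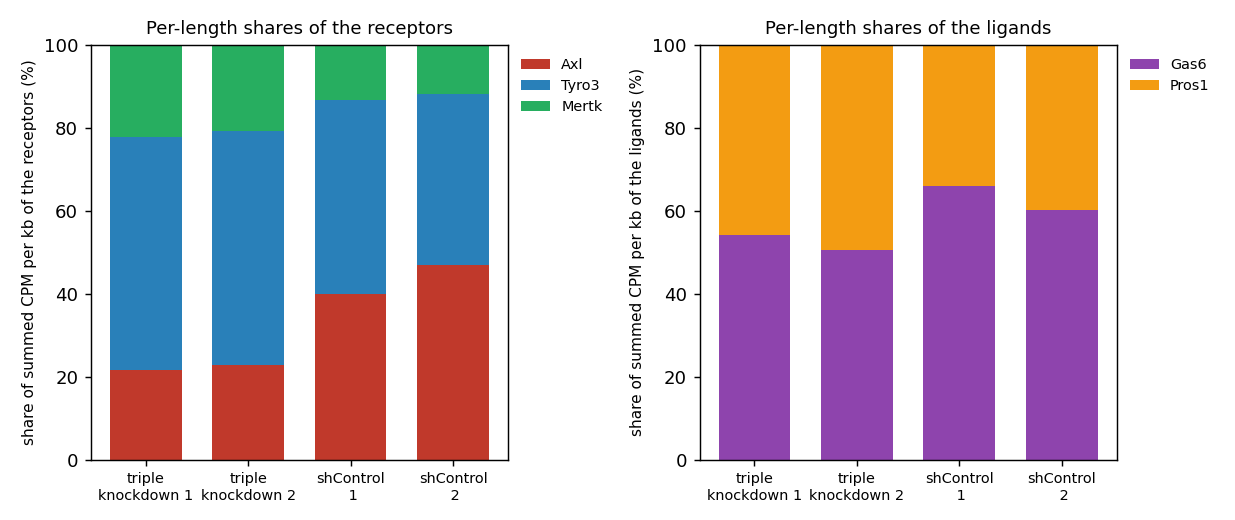
Share (y axis, percent) of each receptor in the summed CPM per kilobase of the 3 receptors (left) and of each ligand in that of the 2 ligands (right), for the 2 triple knockdown and the 2 shControl libraries. The Axl share is 21.6% and 22.8% in the triple knockdown libraries and 39.9% and 46.8% in the shControl libraries.

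The receptors were set beside 35 other tested receptor tyrosine kinases, out of a list of 55. In edgeR 0 of these 35 were past the threshold, 7 had an unadjusted p under 0.05 (beside 1685, or 12%, of the 14050 genes), and DESeq2 and limma-voom also called 0. Their median log2 fold change was -0.07, with a range of -1.22 to 0.52, beside a median of -0.01 over all tested genes. Axl had the lowest fold change of the 38 receptors, but the family was selected on this difference, so nothing is read from that rank. The next was Ephb1, a receptor for ephrin-B ligands that was picked out after its values were seen, with 1.33 and 1.30 CPM in the triple knockdown and 3.39 and 2.70 CPM in shControl (log2 fold change -1.22, SE 0.36, edgeR adjusted p = 0.0689). Among abundant receptors, Epha5 had 18.5 ± 2.74 CPM in the triple knockdown and 24.5 ± 5.36 CPM in shControl, and the epidermal growth factor receptor Egfr had 19.6 ± 0.779 CPM in the triple knockdown and 18.0 ± 3.77 CPM in shControl. By level per kilobase in shControl, Tyro3 and Axl ranked 14th and 15th of the 38, and Mertk 31st.

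**Figure D4:**
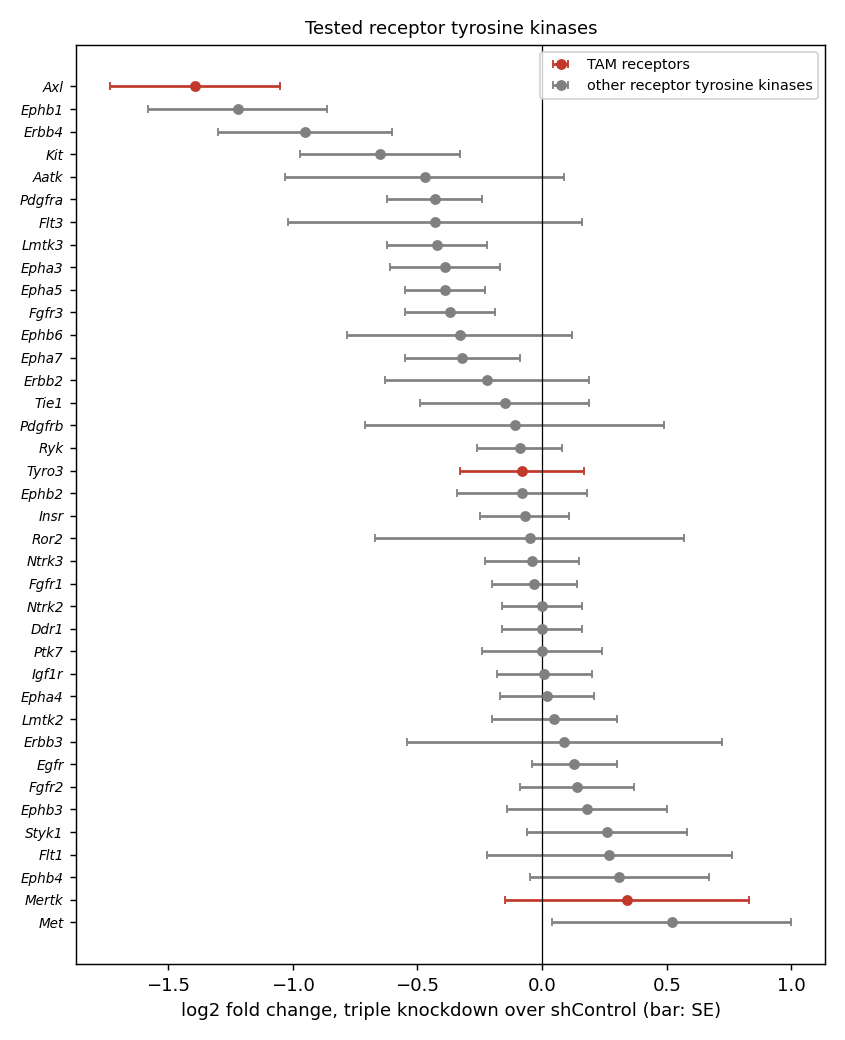
Log2 fold change of triple knockdown over shControl (x axis) with its SE (bar) for the 38 tested receptor tyrosine kinases, ordered by fold change, with the TAM receptors in red. Axl, on whose difference the family was selected, is the lowest at -1.39, Tyro3 is at -0.08 and Mertk at 0.34.

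Both ligands need gamma-carboxylation, a vitamin K-dependent modification of their Gla domain. Of 7 tested genes of carboxylation and the vitamin K cycle, 0 were past the threshold in edgeR, and 0 had an unadjusted p under 0.05 or were called by DESeq2 or limma-voom. Their median log2 fold change was 0.17. Over all tested genes 1.37% were past the edgeR threshold and 12% had an unadjusted p under 0.05, which applies to both lists of this paragraph. Ggcx, the carboxylase itself, which was named for its role outside the naming rule, had 3.78 and 2.74 CPM in the triple knockdown and 2.32 and 2.70 CPM in shControl (log2 fold change 0.40, SE 0.31). Vkorc1, the vitamin K epoxide reductase, had 35.9 ± 5.12 CPM in the triple knockdown and 30.9 ± 2.40 CPM in shControl, but 46.0% of its 31-base words are shared with another gene. Calu, which encodes the inhibitor calumenin, had 43.8 ± 1.42 CPM in the triple knockdown and 49.5 ± 6.96 CPM in shControl, and the quinone reductase Nqo1 10.1 ± 0.314 CPM in the triple knockdown and 8.84 ± 1.88 CPM in shControl. Of 12 other Gla proteins 6 were tested and 0 were past the threshold in edgeR, at an unadjusted p under 0.05, in DESeq2 or in limma-voom (median 0.12). The transmembrane Gla protein gene Prrg2 had 3.17 ± 0.117 CPM in the triple knockdown and 4.10 ± 0.906 CPM in shControl.

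Phosphatidylserine, the signal on dying cells that the ligands bind, is held inside the membrane by flippases and exposed by scramblases. Of 13 such genes 10 were tested. In edgeR 0 were past the threshold and 3 had an unadjusted p under 0.05, beside 12% of all tested genes. DESeq2 and limma-voom called 0, and the median log2 fold change was -0.06. Tmem30a, the subunit that flippases need to leave the endoplasmic reticulum, had 48.9 and 58.4 CPM in the triple knockdown and 80.3 and 67.5 CPM in shControl. Its groups did not overlap (log2 fold change -0.47 with SE 0.14; edgeR adjusted p = 0.0654). The flippase gene Atp11b had 15.7 ± 0.142 CPM in the triple knockdown and 16.8 ± 0.161 CPM in shControl.

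Other receptors and bridging proteins for phosphatidylserine are alternatives to the TAM system. Of 15 listed 10 were tested, with 0 past the threshold in edgeR and 2 at an unadjusted p under 0.05 (12% of all tested genes). DESeq2 and limma-voom called 0, and the median log2 fold change was -0.01. Mfge8, a secreted protein that bridges phosphatidylserine to integrins, had 10.4 ± 2.02 CPM in the triple knockdown and 12.8 ± 2.83 CPM in shControl. Edil3, a related bridging protein, had 11.4 and 11.7 CPM in the triple knockdown and 14.7 and 13.9 CPM in shControl, and the engulfment receptor Lrp1 10.1 ± 0.812 CPM in the triple knockdown and 14.3 ± 4.53 CPM in shControl. None of these differences passed over all genes in the reported fit. The log2 fold change of Lrp1 ranged from -0.79 to -0.12 when 1 library at a time was left out, so its size rests on which libraries are kept.

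Downstream of the receptors, 1 of 25 tested signalling and engulfment effectors fell, 0 rose and 24 did not pass (median log2 fold change -0.10). The gene that fell was Crk, an adaptor that links receptor signals to Rac during engulfment. It had 18.9 and 22.5 CPM in the triple knockdown and 31.4 and 31.9 CPM in shControl (log2 fold change -0.61 with SE 0.15; edgeR adjusted p = 0.0182). The call was not made by DESeq2 (adjusted p = 0.113) or by edgeR scaled on library size only (0.33), nor when triple knockdown replicate 1 (0.733) or replicate 2 (0.101) was left out. The share called, 1 of 25, stands beside 1.37% of all genes. The small GTPase genes Rhoa and Rac1, the most abundant of the list, had 274 ± 3.04 and 89.9 ± 7.53 CPM in the triple knockdown and 251 ± 16.2 and 81.9 ± 10.7 CPM in shControl. For Rac1, 51.4% of the exonic bases overlap Daglb on the opposite strand, and no source used here says whether counting kept strand.

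TAM receptors can be shed from the surface by Adam10 and Adam17. Of 5 genes of shedding 4 were tested, and 0 were past the threshold in edgeR, at an unadjusted p under 0.05, in DESeq2 or in limma-voom (median log2 fold change 0.09). Over all tested genes 1.37% were past the edgeR threshold and 12% had an unadjusted p under 0.05. Adam10 had 24.0 ± 3.10 CPM in the triple knockdown and 28.2 ± 2.13 CPM in shControl. Adam17 had 8.61 ± 0.109 CPM in the triple knockdown and 7.70 ± 1.00 CPM in shControl, and Rhbdf1, which guides Adam17 to the surface, 5.95 ± 0.486 CPM in the triple knockdown and 4.55 ± 0.593 CPM in shControl.

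The interferon receptor, STAT and SOCS genes were listed because TAM receptors signal through them in dendritic cells, and the list was written with the rise of interferon-stimulated genes in these libraries known. Of 10 tested genes 1 rose, 0 fell and 9 did not pass, beside 0.541% of all genes that rose, with a median log2 fold change of 0.08. The gene that rose was Irf9, the DNA-binding subunit of the factor that activates interferon-stimulated genes. It had 6.56 and 5.93 CPM in the triple knockdown and 2.55 and 1.95 CPM in shControl (a log2 difference of 1.44 with SE 0.26; edgeR adjusted p = 0.000226) and was past the threshold in 11 of 11 alternatives. The receptor subunits Ifnar1 and Ifnar2 had log2 fold changes of -0.04 and 0.30 and the receptor's kinase Jak1 one of -0.17. Socs1 and Socs3, inhibitors of cytokine signalling named for their role outside the naming rule, had low counts. Socs1 had 18.0 and 15.0 reads in the triple knockdown and 18.0 and 9 in shControl (log2 fold change 0.33, SE 0.54). Socs3 had 25.0 and 18.0 reads in the triple knockdown and 41.0 and 16.0 in shControl (-0.34, SE 0.43).

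Transcription factors reported in other systems to act on Axl showed small differences. Of 16 listed 12 were tested, with 0 past the threshold in edgeR, at an unadjusted p under 0.05, in DESeq2 or in limma-voom. Their median log2 fold change was -0.13 and their range -0.32 to 0.07. Over all tested genes only 1.37% were past the edgeR threshold and 12% had an unadjusted p under 0.05. Tead2, a TEAD factor abundant in neural progenitors, had 48.6 ± 1.94 CPM in the triple knockdown and 54.5 ± 10.1 CPM in shControl. Hif1a, the hypoxia-inducible factor, had 35.8 ± 5.56 CPM in the triple knockdown and 40.3 ± 3.09 CPM in shControl.

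**Figure D5:**
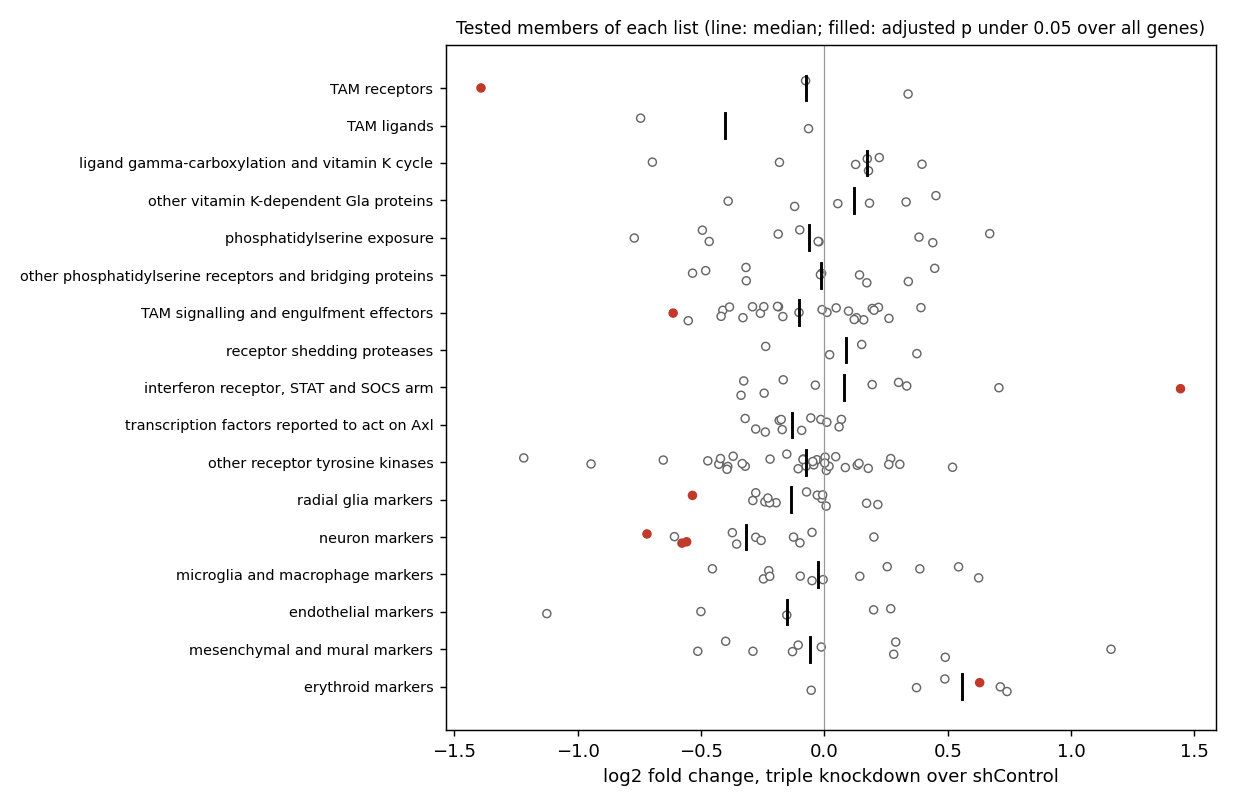
Log2 fold change of triple knockdown over shControl (x axis) of every tested gene of each list (points), with the median as a line; filled points have an adjusted p under 0.05 over all genes. Axl at -1.39 and Irf9 at 1.44 are the furthest filled points among the receptors, ligands and pathway lists.

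Since TAM genes are also expressed by microglia, blood vessels and connective tissue, markers of these cells were measured in the same libraries. In bulk RNA, fewer cells of a type and less RNA per cell cannot be told apart. An unadjusted p under 0.05 in edgeR was found for 12% of all tested genes, which applies to each list below. Of 18 microglia and macrophage markers 12 were tested, 0 passed in edgeR and 2 had an unadjusted p under 0.05. DESeq2 called 0 and limma-voom 1. Their summed level was 45.6 to 49.9 CPM in the triple knockdown and 47.3 to 49.4 CPM in shControl, with no list gene at 0 in every library. The defining markers that were too low to test, named for their role, did not go one way. Csf1r had 1 and 2.57 reads in the triple knockdown and 0 in both shControl libraries, whereas Aif1 had 6 and 6 reads in the triple knockdown and 11 and 13 in shControl. Adgre1 had 3 and 0 reads in the triple knockdown and 5 and 6 in shControl. Ptprc, the gene limma-voom called (adjusted p = 0.046), had 11.6 ± 1.47 CPM in the triple knockdown and 7.74 ± 3.39 CPM in shControl. Omitting shControl replicate 1 gave Ptprc a log2 fold change of 0.20, and omitting replicate 2 gave 1.13, which passed in edgeR (adjusted p = 8.62e-05). Lyz2 had 11.2 ± 2.14 CPM in the triple knockdown and 15.4 ± 1.65 CPM in shControl. Of 12 endothelial markers 5 were tested, with 0 past the threshold in edgeR, DESeq2 and limma-voom and 1 at an unadjusted p under 0.05. The endothelial sum was 9.32 to 11.3 CPM in the triple knockdown and 11.0 to 12.6 CPM in shControl. Within it Egfl7 had 1.12 and 0.651 CPM in the triple knockdown and 2.04 and 1.88 CPM in shControl (log2 fold change -1.12, SE 0.44), while Flt1 had 1.20 ± 0.0377 CPM in the triple knockdown and 0.985 ± 0.118 CPM in shControl. Of 12 mesenchymal and mural markers 10 were tested, with 0 past the threshold in edgeR, DESeq2 and limma-voom and 1 at an unadjusted p under 0.05. The mesenchymal sum was 53.4 to 55.0 CPM in the triple knockdown and 51.5 to 55.7 CPM in shControl, with Col3a1 at 5.47 ± 0.276 CPM in the triple knockdown and 7.25 ± 0.59 CPM in shControl and Col1a1 at 4.67 ± 0.335 CPM in the triple knockdown and 3.85 ± 0.393 CPM in shControl.

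Some markers of neurons, radial glia and red blood cells also passed the threshold. Of 12 tested neuron markers 3 fell and 9 did not pass (median log2 fold change -0.32, beside 0.826% of all genes that fell), and their summed level was 880 to 918 CPM in the triple knockdown and 1080 to 1190 CPM in shControl. The neuronal beta-tubulin Tubb3 had 62.9 ± 1.92 CPM in the triple knockdown and 103 ± 20.9 CPM in shControl (edgeR adjusted p = 0.000445), and Nsg2 and Celf4 also fell (adjusted p = 0.0144 and 0.0437). With library size as the only scaling none of these 3 calls held (adjusted p = 0.0728 for Tubb3, 0.224 for Nsg2 and 0.388 for Celf4). Nor did they hold without triple knockdown replicate 1 (0.0657, 0.586 and 0.446) or replicate 2 (0.0852, 0.297 and 0.513). Omitting shControl replicate 1 ended the Nsg2 call too (0.0841). DESeq2 (0.216) and a replicate block (0.0607) each ended the Celf4 call. Of 14 radial glia markers 1, Hopx, fell (adjusted p = 0.0163; 27.2% of its exonic bases overlap Hopxos on the opposite strand), with a list median of -0.13. The Hopx call was lost with library size as the only scaling (0.343) and without triple knockdown replicate 1 (0.621) or replicate 2 (0.251). Sox2 had 52.8 ± 3.99 CPM in the triple knockdown and 64.5 ± 3.42 CPM in shControl. Of 6 tested erythroid markers 1, Hbb-y, rose (adjusted p = 0.0399; 0.541% of all genes rose) and 5 did not pass. It was past the threshold in 6 of 11 alternatives, and not with DESeq2 (0.271), library size as the only scaling (0.111), a replicate block (0.0529) or without triple knockdown replicate 1 (0.974) or replicate 2 (0.0858). The erythroid list had a median of 0.56 and a sum of 39.6 to 41.7 CPM in the triple knockdown and 26.5 to 29.1 CPM in shControl. The part of these cell types in the levels of Axl and Gas6 was not tested.

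The chromosomal neighbours of the members were also examined. The nearest tested protein-coding gene on each side of each member gave 10 genes, with log2 fold changes from -0.39 to 0.15. Of these 0 were past the edgeR threshold, beside 1.37% of all tested genes, so nothing is read from that count. Beside Axl, Hnrnpul1, an RNA-binding protein gene 2515 bases away, had 19.7 ± 2.06 CPM in the triple knockdown and 22.6 ± 0.113 CPM in shControl. On the other side the nearest was Vmn1r184, 471628 bases away, with 1.38 ± 0.0126 CPM in the triple knockdown and 1.30 ± 0.135 CPM in shControl. Beside Gas6, Grk1 had 5.45 ± 0.804 CPM in the triple knockdown and 5.09 ± 2.15 CPM in shControl and Rasa3 6.42 ± 2.91 CPM in the triple knockdown and 7.54 ± 0.365 CPM in shControl.

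The genes most like Axl across the 4 libraries were found by the Euclidean distance between log2 CPM profiles centred on their mean. The search covered 11840 genes that averaged 1 CPM or more, with pseudogenes and genes under clone-type names left out. They were Meig1 (distance 0.19), Pla2g16 (0.29) and Pla2g4a (0.30), and both of the Pla2g genes encode phospholipases. Pla2g16 had 3.84 and 4.23 CPM in the triple knockdown and 7.11 and 9.99 CPM in shControl. Meig1 had 0.586 and 0.782 CPM in the triple knockdown and 1.67 and 1.95 CPM in shControl, and Pla2g4a 0.533 and 0.717 CPM in the triple knockdown and 1.30 and 1.58 CPM in shControl. The gene most like Gas6 was Fam19a5 (distance 0.02), which had 5.97 and 5.73 CPM in the triple knockdown and 11.8 and 7.51 CPM in shControl. For Tyro3, Mertk and Pros1 the nearest were Ncor1, Cacnb4 and Rgs10 (distances 0.01, 0.02 and 0.01). With 4 libraries in 2 groups such likeness records the difference between the groups and the spread between the libraries of a group. For Tyro3 and Pros1 the difference between the groups was small (log2 fold change -0.08 and -0.06).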

How the data were processed

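The authors deposited unnormalized gene-level estimated counts, 1 column per library. Salmon, GRCm38 and mm10 are named in the submitters' processing notes; no source used here gives the Salmon version, annotation, strand setting or how transcripts were summed. In each library 23.1% to 25.1% of the identifiers had a fractional value, and these values were rounded before testing. Symbols came from GENCODE M21 for 34652 identifiers. Differences were tested by edgeR 4.0.16 under R 4.3.3 (TMM, filterByExpr with a minimum count of 10, robust quasi-likelihood F test, two-sided, Benjamini-Hochberg adjustment, threshold 0.05). The step was run on simulated data in which only genes of higher mean count than Axl and Mertk were changed, so it does not cover counts as low as theirs. SEs were derived from fold change and F statistic (absolute log2 value over root F), and intervals are 1.96 SE either side, unadjusted. With 2 libraries per group the smallest exact permutation p is 0.33, so none was run. DESeq2 1.42.0, limma-voom (limma 3.58.1), other filters and scaling, a replicate block and leaving out each library were the alternatives. The shares of 31-base words and of exonic bases in common with another gene came from M21; for the members they were at most 0.278% and 1.33%.

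The members and lists were chosen with earlier results of these data known. Genes were named by rule: the members, targets, up to 4 genes per list past the threshold by smallest p, up to 4 others per list by highest CPM, neighbours and nearest profiles; exceptions are stated where they occur. Results for some genes are not reported here.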

Additional observations from a re-analysis of the deposited data

How the results depend on the processing

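Axl was past the threshold in 7 of the 11 alternatives. The other 4 were DESeq2 (-1.39) and the fits without triple knockdown replicate 1, triple knockdown replicate 2 and shControl replicate 2. Axl was lower in all 11, an order already fixed by its non-overlapping libraries. Leaving out 1 library at a time, log2 fold changes ranged from -1.62 to -1.16 for Axl, -1.0 to -0.34 for Gas6 (past the threshold only without shControl replicate 2), -0.15 to 0.0032 for Tyro3, 0.30 to 0.38 for Mertk and -0.18 to 0.11 for Pros1. With library size alone Tyro3 was at 0.0042, Pros1 at 0.01, Ifnar1 at 0.04, and Ncor1 and Rgs10 at 0.02. Genes past the threshold numbered 76 higher and 116 lower in the reported fit, 30 and 39 with DESeq2, 77 and 28 with library size alone, and 27 to 280 and 17 to 334 without 1 library. The effectors held 0 with DESeq2 and with library size alone. Without 1 library they held 0 to 2, phosphatidylserine exposure 0 to 2, other phosphatidylserine receptors 0 to 1, other receptor tyrosine kinases 0 to 1 and the interferon arm 1 to 2. The sign of small values changed without 1 library for Ifnar1 (-0.14 to 0.11), Tead2 (-0.33 to 0.04), Egfr (-0.08 to 0.36), Ncor1 (-0.14 to 0.01), Rgs10 (-0.18 to 0.11), Vmn1r184 (-0.0043 to 0.19), Grk1 (-0.27 to 0.63), Rasa3 (-0.79 to 0.17), Zfp7 (-0.98 to 0.03) and Socs3 (-0.58 to 0.06). The cause was not tested. With a replicate block 75 genes were higher and 97 lower and Axl was at -1.39, no member's call changed, and Celf4 (0.0607) and Hbb-y (0.0529) lost theirs; same-numbered libraries did not deviate together (correlation -0.03 across genes), so the numbers were not taken to pair the libraries. With 13.0 to 25.0 reads per library for Mertk and for Axl in the triple knockdown, counting error alone limits these values.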
